A study of Mus musculus with 69 samples.

Results

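Fibrinogen, complement and haptoglobin are plasma proteins that the liver makes and increases in the acute phase response. The values below are read counts of 7 of their genes in RNA from mouse kidney, out of 24411 genes in the count table. These genes are the fibrinogen chains Fga, Fgb and Fgg, the complement genes C3, Cfb and C4b, and the haptoglobin gene Hp. They were taken by gene symbol. Fgb and Fgg were chosen by their rank near the top of the genes higher after ischemia in Atp6v1b1Cre, and the sex of the mice behind that rank was not given. The males were taken as its source, so their ischemia values are a description with no test. The tests of Fgb and Fgg in Atp6v1b1Cre females assume that the females took no part in the choice, and are not independent evidence if they did.

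The mice carried Toxoplasma Uprt behind a floxed stop at Rosa26, opened by Hoxb7Cre (Hoxb7Cre;UPRTf/+), which acts in the collecting duct, or by Atp6v1b1Cre (labelled Atp6b1v1Cre;UPRTf/+), which acts in its intercalated and double-positive cells. Every group used here, controls included, carried a Cre and Uprt, and was injected with 4-thiouracil (430 mg/kg) 4 hours ahead of dissection. Uprt lets the Cre cells build the label into new RNA, and biotin pulldown then gave the labeled pool. Ischemic mice had both renal pedicles clamped for 10 minutes and were studied 24 hours later, and volume-depleted mice went without water and food for 72 hours. Per the study's methods, the ischemic mice also had ketamine and xylazine anesthesia, laparotomy, warming and sterile saline. Sham-operated controls are not described, so that ischemia and surgery cannot be told apart in these comparisons. The injury comparisons used mice labelled 5.5 months old. In males there were 4 control, 3 ischemic and 4 volume-depleted Atp6v1b1Cre libraries, and 4 control, 4 ischemic and 3 volume-depleted Hoxb7Cre libraries. In females there were 4 control, 3 ischemic and 3 volume-depleted Atp6v1b1Cre libraries, and 4 control, 3 ischemic and 4 volume-depleted Hoxb7Cre libraries. The control comparison added 5 pulldown libraries of mice of 3 months and 21 libraries of total kidney RNA of control mice.

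The 69 libraries held 12618062 to 30305464 counts, with a median of 20868430. The labelled cell types were partly borne out by marker genes. In controls of 5.5 months the summed level of 6 intercalated cell markers was 727 to 1333 CPM, the count scaled to library size, in Atp6v1b1Cre pulldowns and 416 to 969 CPM in Hoxb7Cre pulldowns, and that of 6 principal cell markers was 722 to 1009 CPM and 1104 to 3439 CPM. Markers of other segments and cells were present in the pulldowns as well. These are pooled RNAs, so that fewer cells of a type and less RNA per cell cannot be told apart. The libraries carry numbers in 3 series, 1 to 40, 65 to 85 and from 98 on, and some groups are split over them. Nothing in the labels says that same-numbered replicates share a litter or a day.

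Fibrinogen is a hexamer of paired α, β and γ chains, and a cell needs all 3 messages to secrete it. Thrombin cuts it to fibrin, which plasmin dissolves. C3 is the central complement protein on which every activation route converges. C4 belongs to the classical and lectin routes, factor B to the alternative route, and haptoglobin binds free hemoglobin. In liver these genes respond to IL-6 through STAT3 and C/EBP factors, and injured kidney epithelium is known to express several of them.

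The 3 chain genes lie next to each other on chromosome 3 of GRCm38, within one interval: Fgg at chr3:83007724-83015049 on the plus strand, Fga at chr3:83026076-83033627 on the plus strand and Fgb at chr3:83040141-83049863 on the minus strand. Because all 3 chains rose in ischemic Atp6v1b1Cre females, their promoters are shown as RefSeq gives them for GRCm38.p6, together with that of C3, each 5′ to 3′ on the gene's own strand. The windows are chr3:83025903-83026075 for Fga, chr3:83049864-83050113 for Fgb, chr3:83007474-83007723 for Fgg and chr17:57228137-57228386 for C3. The first was cut where the GENCODE gene begins, which left 173 of 250 bases, because the RefSeq start of Fga, just after base 83026152, lies inside that gene. Capitals mark matches, on either strand, to motifs that are known from acute phase genes: the IL-6 response letters CTGGGAA, the STAT letters TTCNNNGAA, the C/EBP letters TTGCNNAA, the HNF1 letters GTTAAT and the NF-kappaB site. Matches to different motifs did not overlap.
Fga: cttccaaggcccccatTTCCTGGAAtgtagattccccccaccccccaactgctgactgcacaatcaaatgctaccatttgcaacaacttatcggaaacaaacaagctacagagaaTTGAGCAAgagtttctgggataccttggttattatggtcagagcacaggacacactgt
Fgb: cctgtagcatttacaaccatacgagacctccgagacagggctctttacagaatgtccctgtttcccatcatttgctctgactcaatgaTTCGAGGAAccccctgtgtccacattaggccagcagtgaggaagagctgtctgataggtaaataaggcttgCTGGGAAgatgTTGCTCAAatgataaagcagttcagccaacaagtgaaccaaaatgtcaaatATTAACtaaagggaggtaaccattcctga
Fgg: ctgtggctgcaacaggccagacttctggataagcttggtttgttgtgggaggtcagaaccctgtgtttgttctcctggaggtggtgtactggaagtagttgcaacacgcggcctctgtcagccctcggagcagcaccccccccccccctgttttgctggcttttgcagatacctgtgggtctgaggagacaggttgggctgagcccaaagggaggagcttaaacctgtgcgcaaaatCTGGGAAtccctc
C3: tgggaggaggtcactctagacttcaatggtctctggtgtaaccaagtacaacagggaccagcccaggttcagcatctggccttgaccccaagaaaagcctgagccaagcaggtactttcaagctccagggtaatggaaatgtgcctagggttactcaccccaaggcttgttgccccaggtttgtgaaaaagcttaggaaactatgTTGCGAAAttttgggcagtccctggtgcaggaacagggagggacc
Fgb held a match to 4 of the 5 motifs, starting 162, 91, 80 and 29 bases before the RefSeq start for STAT, IL-6, C/EBP and HNF1. Fga held STAT and C/EBP matches 234 and 135 bases before its RefSeq start, and an HNF1 match 43 bases before it that lies within the GENCODE gene, outside the stretch shown. Fgg held the IL-6 letters 13 bases before the start, and C3 the C/EBP letters 45 bases before the start. Such letters are common: of 32536 different promoter windows of the same length, 9.14% held the IL-6 letters, 7.04% the STAT letters, 9.57% the C/EBP letters, 6.47% the HNF1 letters and 1.4% the NF-kappaB site. A match is a description of the sequence and not a binding site. Promoters of Cfb, C4b and Hp are not shown here.

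In control pulldowns the chains were measured at very unequal levels. The study cautions that the pulldown may favor RNA rich in uracil, which limits comparisons between genes. The exon lengths used here join all annotated exons of a gene. Per kilobase of exon, Fga stood at a mean of 9.89 CPM in the 11 Atp6v1b1Cre control libraries, Fgg at 0.898 CPM and Fgb at 0.155 CPM. In the 10 Hoxb7Cre control libraries the same levels were 7.16, 0.449 and 0.0382 CPM. Fga thus accounted for 90.4% and 93.6% of the summed chain level per kilobase. Fgb was close to not being detected, with 3 counts or fewer in 10 of the 21 control pulldown libraries and none at all in 5 of them. A fold change of Fgb against such groups rests on a few reads.

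In Atp6v1b1Cre females all 3 chains rose after ischemia. For Fgg and Fgb these tests hold only on the assumption that the choice rested on the males. Fgg, the γ chain, was at 1.10, 3.13, 3.62 and 3.76 CPM in control females and at 14.0, 40.5 and 227 CPM in ischemic females. Every ischemic library was above every control library, but the ischemic libraries spanned a wide range among themselves. The log2 fold change was 4.98 (SE, the standard error, 0.81, adjusted p = 0.00482 by edgeR's quasi-likelihood test), the 10th largest rise of the 21175 genes tested.

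Fga, the α chain, was at 22.7, 29.6, 39.9 and 50.4 CPM in control and at 68.6, 106.6 and 892 CPM in ischemic females. The groups did not overlap, and replicate 6 was far above the other 2 ischemic libraries. The log2 fold change was 3.29 (SE 0.66, adjusted p = 0.0159). Fgb, the β chain, was at 0.431, 0.771, 1.62 and 2.70 CPM in control and at 1.35, 8.48 and 47.8 CPM in ischemic females. Here the lowest ischemic library lay within the control range. The log2 fold change was 3.74 (SE 0.88, adjusted p = 0.0301), and the counts behind it were 9 to 74 per control library and 44 to 1030 per ischemic library.

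Besides the chains, C3 and Hp rose in these females, so that 5 of the 7 genes were called at an adjusted p under 0.05 and at least 2-fold, against 1.15% of all genes tested in this comparison (0.581% called as higher). Ischemic replicate 6 carried much of the size of the chain values. Without it the log2 fold change was 1.28 for Fga (adjusted p = 0.0969) and 1.797 for Fgb (adjusted p = 0.169), and neither was called. Leaving out control replicate 7 left 1 of the 7 genes called, control replicate 13 left 2, and control replicate 12 or ischemic replicate 2 or 3 left 3. Fgg was called in each of the 7 fits that left out 1 library. Replicate 6 was the one ischemic library outside the first series of library numbers. Within the first series, with 2 ischemic and 2 control libraries, the log2 fold changes were 2.82 for Fgg (adjusted p = 0.0811), 1.12 for Fgb (adjusted p = 0.502) and 0.90 for Fga (adjusted p = 0.326), and Hp was the 1 gene called.

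The levels of other genes moved with the chains between these libraries. The summed level of 6 injured tubule markers (Havcr1, Lcn2, Krt20, Vcam1, Spp1 and Timp1) was 360 to 599 CPM in control females, 1282 and 1354 CPM in ischemic replicates 3 and 2, and 8871 CPM in replicate 6. Havcr1, the proximal injury marker Kim-1, was at 25.1, 49.8 and 477 CPM in replicates 3, 2 and 6, and at no more than 0.544 CPM in controls. Their part in the result was not tested. The summed level of 20 hepatocyte markers was no higher after ischemia, at 142 to 369 CPM against 174 to 515 CPM in controls, and was lowest in replicate 6. Alb, the albumin gene and the most abundant message of liver, was at 2.18 to 3.26 CPM in ischemic and 1.58 to 5.70 CPM in control females, and Cyp3a11 was at 0 in both groups. The 10 macrophage markers summed to 78.3 to 196 CPM after ischemia and 122 to 180 CPM in controls. The measured neutrophil markers summed to 2.49 to 4.20 CPM against 1.24 to 1.82 CPM, without overlap, and the part of these cells was not tested.

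**Figure D1:**
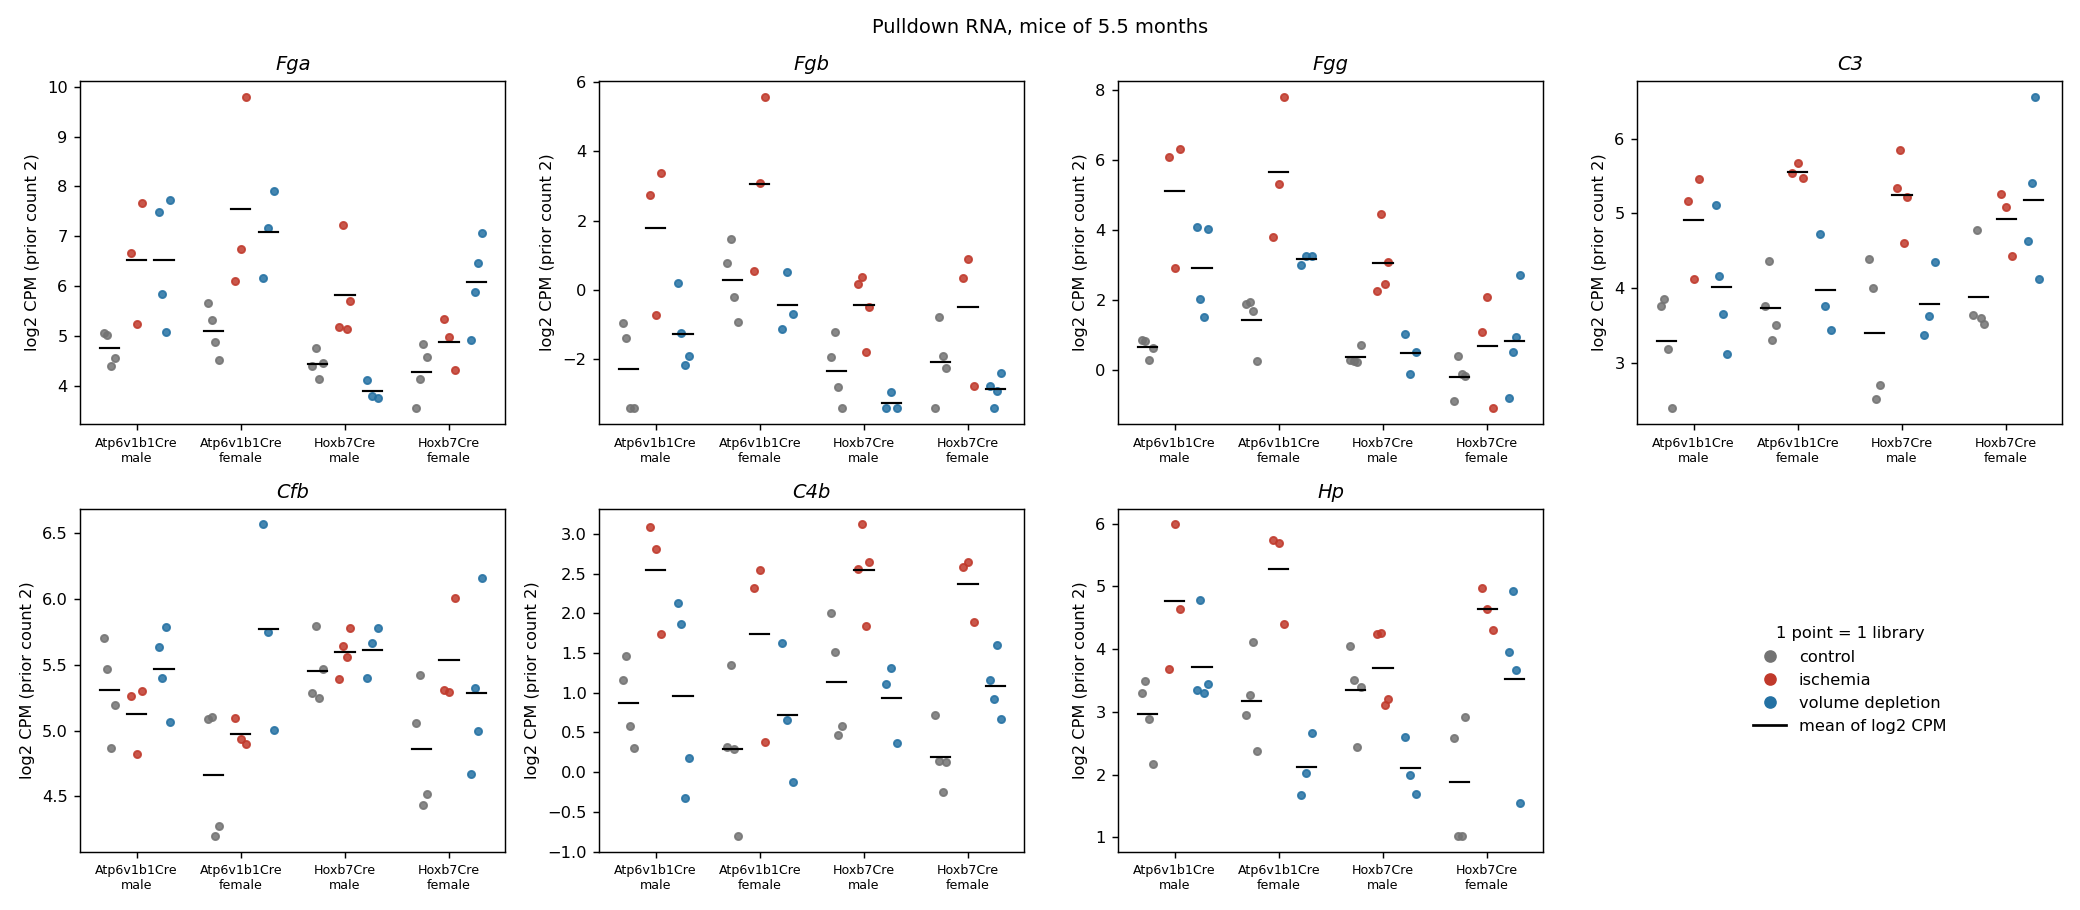
Level of each of the 7 genes in every pulldown library of mice of 5.5 months, as log2 CPM with a prior count of 2, by Cre driver, sex and treatment, with the mean of each group as a line. In ischemic Atp6v1b1Cre females Fgg lay at 14.0 to 227 CPM, above all 4 control females at 1.10 to 3.76 CPM, whereas Cfb lay at 29.7 to 34.1 CPM against 18.3 to 34.2 CPM.

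In Atp6v1b1Cre males, taken as the source of the choice of Fgb and Fgg, the pattern is given without a test. Fgg was at 1.14, 1.47, 1.69 and 1.72 CPM in controls and at 7.49, 68.6 and 80.6 CPM after ischemia. Fgb was at 0, 0, 0.290 and 0.419 CPM in controls and at 0.509, 6.60 and 10.2 CPM after ischemia. The log2 fold changes were 5.11 and 5.07, the 5th and the 6th largest rises of 21175 genes. Because 2 of the 4 Fgb controls held no read, that Fgb value depends on the prior count and is no bound.

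Fga was at 21.0 to 33.3 CPM in these control males and at 37.7, 100.8 and 202 CPM after ischemia, a log2 fold change of 2.04. Replicate 4 was the lowest ischemic male for all 3 chains, and also the lowest for the injured tubule markers, at 753 CPM against 1670 and 4177 CPM in replicates 1 and 5. The makeup of the chains also differed between the groups. Fgg made up 38.9% of the chain level per kilobase in ischemic males and 7.24% in control males, and 26.7% and 10.2% in ischemic and control females. Fgg was chosen for its rise, taken to be in these males, and Fga was not. The larger share of Fgg in ischemic males is therefore not independent of that choice, and that in females only if they took no part.

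In Hoxb7Cre males, a driver that the choice did not name, Fgg rose and the other chains did not pass the threshold. Fgg was at 1.09, 1.11, 1.14 and 1.55 CPM in controls and at 4.75, 5.47, 8.45 and 22.1 CPM after ischemia. The groups did not overlap, with a log2 fold change of 3.07 (SE 0.66, adjusted p = 0.00851). Fga was at 17.6 to 27.03 CPM in controls and at 35.4, 36.4, 52.1 and 151 CPM after ischemia. These groups did not overlap either, but at a log2 fold change of 1.66 (SE 0.51) the adjusted p was 0.0565. Fgb reached 4 to 28 counts per ischemic library and 0 to 7 per control library, at 2.42 (adjusted p = 0.159). Replicate 5 was the highest for all 3 chains. It also held the highest sum of injured tubule markers, at 3522 CPM against 562 to 1606 CPM in the other 3 and 332 to 439 CPM in controls, and their part in the result was not tested. Together with C3, 2 of the 7 genes were called, against 2.3% of all genes (1.52% called as higher).

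In Hoxb7Cre females no chain was called after ischemia. Fga was at 20.0, 31.4 and 40.5 CPM against 11.6 to 28.6 CPM in controls, and Fgg at 0.378, 2.05 and 4.18 CPM against 0.452 to 1.23 CPM. Replicate 3 lay within or below the control range for all 3 chains. The log2 fold changes were 0.59 for Fga, 2.29 for Fgb and 1.38 for Fgg, with adjusted p from 0.207 to 0.612. The sum of injured tubule markers in these mice was 497 to 814 CPM, against 320 to 711 CPM in controls.

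The difference between the drivers and between the sexes was tested directly. Between Atp6v1b1Cre and Hoxb7Cre females the ischemia response differed by 3.59 for Fgg (SE 1.17, adjusted p = 0.575) and by 2.70 for Fga (SE 0.91, adjusted p = 0.598) on the log2 scale. None of the 7 genes was called there. Nor was any of the 21175 genes by edgeR, with 1525 at an unadjusted p under 0.05, 2 of the 7 among them, and 35 genes called by DESeq2. Between Hoxb7Cre males and females the response differed by 1.71 for Fgg (adjusted p = 0.358) and 1.08 for Fga (adjusted p = 0.451), and 0 of the 7 genes were called by edgeR, against 6.98% of all genes, with 1 at an unadjusted p under 0.05 and 1 called by DESeq2. These tests do not show that the chains respond alike in the 2 drivers or sexes.

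**Figure D2:**
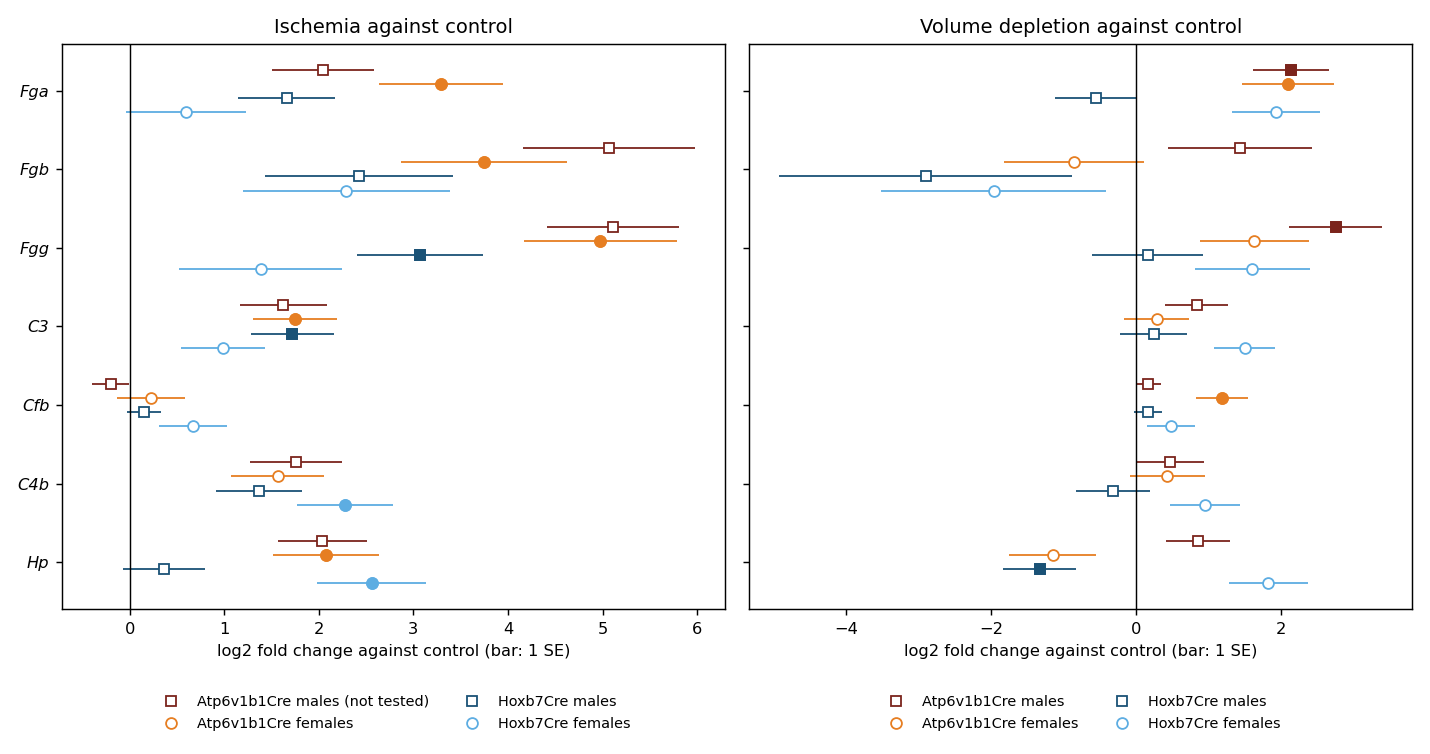
Log2 fold change of each gene against control with 1 standard error on each side, for ischemia and for volume depletion, in both drivers and sexes, where filled symbols mark called genes and ischemic Atp6v1b1Cre males were not tested. The fibrinogen chains reached 3.29 to 4.98 after ischemia in Atp6v1b1Cre females, and Cfb stayed between -0.20 and 0.67 after ischemia in all 4 groups.

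C3 rose after ischemia in 2 of the 3 groups that were tested. In Atp6v1b1Cre females it was at 9.79, 11.3, 13.5 and 20.6 CPM in controls and at 44.2, 46.4 and 50.9 CPM after ischemia. The groups did not overlap and the ischemic libraries lay close together, replicate 6 included. The log2 fold change was 1.75 (SE 0.44, adjusted p = 0.0388). The call was lost in 5 of the 7 fits without 1 library, with log2 fold changes of 1.62 to 1.77 in those 5 and adjusted p of 0.0866 to 0.129.

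In Hoxb7Cre males C3 was at 5.63, 6.42, 15.9 and 20.8 CPM in controls and at 24.3, 37.1, 40.3 and 57.3 CPM after ischemia, again without overlap, with a log2 fold change of 1.72 (SE 0.44, adjusted p = 0.0215). The 2 lower controls were in the second series of library numbers. The 2 higher controls and all ischemic libraries were in the first. Under the 9 alternatives that left out no library the value was 1.11 to 2.52, and C3 was called in each. The call was lost without ischemic replicate 5 (adjusted p = 0.0807), control replicate 4 (0.0681) or control replicate 5 (0.0681). In Hoxb7Cre females it was at 21.6, 33.7 and 38.2 CPM against 11.4 to 27.3 CPM, where control replicate 6 overlapped the ischemic mice and the adjusted p was 0.178. In Atp6v1b1Cre males it was at 17.3, 35.7 and 43.7 CPM after ischemia and at 5.16 to 14.3 CPM in controls.

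C4b, which encodes complement C4, was measured at low counts. It rose in Hoxb7Cre females, from 0.746, 1.00, 1.01 and 1.56 CPM to 3.62, 5.91 and 6.15 CPM, with no overlap and a log2 fold change of 2.28 (SE 0.50, adjusted p = 0.0296). Together with Hp this made 2 of the 7 genes, against 2.08% of all genes (0.784% called as higher), but leaving out any of 6 of the 7 libraries left neither called, with adjusted p of 0.0711 to 0.117 for C4b and 0.0620 to 0.136 for Hp. All 3 ischemic libraries but only 1 control library of these females were in the first series of library numbers. Under the 9 alternatives that left out no library the C4b value was 1.24 to 2.30. It was called in 7 of them, with adjusted p up to 0.966. In Hoxb7Cre males C4b was at 3.49, 5.79, 6.15 and 8.61 CPM against 1.28 to 3.92 CPM (log2 fold change 1.37, adjusted p = 0.0783). These controls were at 2.76 to 3.92 CPM in the first series of library numbers, which held all the ischemic libraries, and at 1.28 to 1.41 CPM in the second. In Atp6v1b1Cre females it was at 1.21, 4.90 and 5.72 CPM against 0.479 to 2.45 CPM (1.57, adjusted p = 0.0851). In ischemic Atp6v1b1Cre males, with no test, it was at 3.24, 6.94 and 8.43 CPM against 1.14 to 2.66 CPM, at 1.76 and without overlap. The low value in the females was replicate 6, the library highest for fibrinogen, and without it C4b was called at 2.00 (adjusted p = 0.0202).

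C4b lies at chr17:34728380-34743882 and its near copy C4a at chr17:34809092-34823464, so that reads matching both would have been left out. The value of C4b is uncertain to that extent. C4a did not follow it: its log2 fold changes after ischemia were -0.08 in Atp6v1b1Cre females, -0.81 in Hoxb7Cre females and -0.79 in Hoxb7Cre males, with adjusted p of 0.962, 0.135 and 0.0669.

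Cfb, which encodes the alternative route's factor B, was called in none of the 3 ischemia comparisons that were tested. In Atp6v1b1Cre females it was at 18.3, 19.3, 33.9 and 34.2 CPM in controls and 29.7, 30.5 and 34.1 CPM after ischemia. The ischemic libraries lay inside the control range (log2 fold change 0.23, standard error 0.36, adjusted p = 0.779). The values were 0.15 (SE 0.18) in Hoxb7Cre males and 0.67 (SE 0.36) in Hoxb7Cre females. Cfb at chr17:34856374-34862518 adjoins C2 at chr17:34862604-34898265 on the same strand, and reads shared between them would have been left out. C2, the factor B relative of the classical route, was at 6.13 to 6.69 CPM in ischemic and 7.71 to 16.4 CPM in control Atp6v1b1Cre females, at -0.96 (adjusted p = 0.164).

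Hp rose after ischemia in females of both drivers. In Atp6v1b1Cre males, with no test, it was at 12.8, 24.95 and 63.5 CPM against 4.42 to 11.2 CPM in controls, without overlap, a log2 fold change of 2.04. In Atp6v1b1Cre females it was at 5.08, 7.67, 9.53 and 17.1 CPM in controls and at 21.0, 51.5 and 53.2 CPM after ischemia. The groups did not overlap, and replicate 6, highest for the fibrinogen chains, was here the lowest of the ischemic mice. The log2 fold change was 2.07 (SE 0.56, adjusted p = 0.0496), close to the threshold, and the call was lost in 5 of the 7 fits without 1 library (control replicates 7, 8 and 13, ischemic replicates 2 and 3). In Hoxb7Cre females Hp was at 1.93, 1.94, 5.87 and 7.45 CPM against 19.7, 24.9 and 31.2 CPM, with a log2 fold change of 2.56 (SE 0.58, adjusted p = 0.0300). All 3 ischemic libraries but only 1 control library were in the first series of library numbers. Under the 9 alternatives that left out no library the value was 1.30 to 2.56. Hp was called in 6 of them, with adjusted p up to 0.720.

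In Hoxb7Cre males Hp was at 8.52, 9.17, 18.9 and 19.1 CPM after ischemia, within or just above the control range of 5.33 to 16.5 CPM, at 0.36 (adjusted p = 0.696). The response of males was lower than that of females by 2.18 on the log2 scale (SE 0.76, adjusted p = 0.0582), which did not pass. Hp lies at chr8:109575128-109579172. Of its partners, 4 of 8 listed genes could be tested, and Cd163, the macrophage receptor that takes up haptoglobin with hemoglobin, rose in ischemic Hoxb7Cre females from 1.01 to 2.42 CPM up to 4.45 to 7.48 CPM (log2 fold change 1.85, adjusted p = 0.0470). In those females the 10 macrophage markers summed to 83.1 to 124 CPM against 45.4 to 100.9 CPM in controls, with overlap. Of the 10, 4 were called higher, beside 0.784% of all genes. The part of macrophages in the Hp and C4b values was not tested.

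After volume depletion Fga rose in Atp6v1b1Cre of both sexes and Fgg in the males. In Atp6v1b1Cre males Fga was at 33.9, 57.0, 178 and 213 CPM against 21.0 to 33.3 CPM in controls, a log2 fold change of 2.14 (SE 0.52, adjusted p = 0.00817). Fgg was at 2.81, 4.04, 16.5 and 17.0 CPM against 1.14 to 1.72 CPM, at 2.76 (SE 0.64, adjusted p = 0.00623). The control males also stand in the contrast taken as the source of the choice of Fgg. The Fgg test, and its part in the count of called genes, are therefore not independent of that choice. The groups did not overlap for either chain, though replicate 6 was just above the controls for Fga. Fgb stayed at 2 to 30 counts per library (1.44, SE 0.99, adjusted p = 0.364), and a difference between the chains was not tested. These were the 2 genes of 7 called, against 5.15% of all genes (3.45% called as higher), and both stayed called whichever library was left out. Within the first series of library numbers neither was called.

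In Atp6v1b1Cre females Fga rose from 22.7 to 50.4 CPM in controls to 71.3, 144 and 242 CPM, a log2 fold change of 2.10 (SE 0.64, adjusted p = 0.0274). Cfb rose from 18.3 to 34.2 CPM to 32.1, 53.6 and 94.7 CPM, at 1.19 (SE 0.36, adjusted p = 0.0269), with 1 depleted library inside the control range. This was the 1 injury comparison in which Cfb was called. These 2 of 7 genes stand against 9.89% of all genes (6.3% called as higher), and the count fell to 0 or 1 in 6 of the 7 fits that left out 1 library. Without depleted replicate 3 the Cfb value was 0.72 (adjusted p = 0.222), and without depleted replicate 5 the Fga value was 1.60 (adjusted p = 0.124). Fgg was at 8.06 to 9.61 CPM, above the controls without overlap, at an adjusted p of 0.136, whereas Fgb stayed at 0.366 to 1.34 CPM.

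In Hoxb7Cre pulldowns volume depletion called none of the chains. In males Fga was at 13.4, 13.9 and 17.3 CPM, below the control range of 17.6 to 27.03 CPM (log2 fold change -0.56, adjusted p = 0.475), and Hp was the 1 gene of 7 called, against 16.4% of all genes (6.81% called as lower). A count of 1 of 7 lies near the share over all genes. Hp fell to 3.13, 3.91 and 5.99 CPM from 5.33 to 16.5 CPM (log2 fold change -1.33, standard error 0.50, adjusted p = 0.0426). The groups overlapped, and the call was lost in 5 of the 7 fits without 1 library. In females C3 was at 17.4, 24.6, 42.4 and 94.4 CPM (1.499, adjusted p = 0.254) and Fga at 30.2, 58.7, 88.1 and 134 CPM, above the 11.6 to 28.6 CPM of controls (1.93, adjusted p = 0.362). None of the 7 was called by edgeR or by DESeq2, with 3 at an unadjusted p under 0.05, against 0.0992% of all genes called by edgeR.

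Ischemia and volume depletion were then set against each other, which asks whether the genes mark one stimulus. Both stimuli share the control mice but not the treated mice. In Hoxb7Cre males 6 of the 7 genes were higher after ischemia, against 14.7% of all genes called (6.55% as higher). Fga was at 35.4 to 151 CPM against 13.4 to 17.3 CPM (log2 difference 2.22, adjusted p = 0.00516). Fgg was at 4.75 to 22.1 CPM against 0.832 to 1.96 CPM (2.91, adjusted p = 0.00341). Fgb held 69 counts in 4 ischemic and 1 count in 3 depleted libraries, a ratio of 61.3 per library size with a 95% interval of 10.6 to 2460 for counting error alone. C3 (1.48, adjusted p = 0.0202), C4b (1.68, adjusted p = 0.0137) and Hp (1.69, adjusted p = 0.0121) differed as well, and Cfb did not (-0.01, adjusted p = 1.00). For these 6 genes the groups did not overlap, which held for 42.9% of all genes. Without depleted replicate 7 the count was 3.

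In Atp6v1b1Cre females 4 of the 7 genes were higher after ischemia than after volume depletion, against 19.9% of all genes called (8.43% as higher). Fgg was at 14.0 to 227 CPM against 8.06 to 9.61 CPM (log2 difference 3.34, adjusted p = 0.00474), Fgb at 1.35 to 47.8 CPM against 0.366 to 1.34 CPM (4.60, adjusted p = 0.00244), C3 at 44.2 to 50.9 CPM against 10.7 to 26.2 CPM (1.46, adjusted p = 0.0239) and Hp at 21.0 to 53.2 CPM against 3.11 to 6.23 CPM (3.22, adjusted p = 0.00111). Fga did not differ beyond the spread (1.19, adjusted p = 0.191), and without ischemic replicate 6 its difference turned to -0.84. Without that library the Fgg difference was 1.55 (adjusted p = 0.108). The Cfb value pointed to volume depletion, at -0.96 (adjusted p = 0.0625). In males of this driver, given as a description, Fga was at 37.7 to 202 CPM after ischemia and 33.9 to 213 CPM after volume depletion, and Fgg at 7.49 to 80.6 CPM and 2.81 to 17.0 CPM. Ischemia against volume depletion was not tested in Hoxb7Cre females. There the mean of Fga was 30.6 CPM after ischemia and 77.8 CPM after volume depletion, with overlap. The means of C3 were 31.2 and 44.7 CPM, and those of Fgg 2.20 and 2.56 CPM. Fgb, Cfb, C4b and Hp had higher means after ischemia.

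Pulldown RNA of control mice was then set against their total kidney RNA. The pulldown holds RNA made since the label was given and total RNA holds what has accumulated, so that cell type and RNA turnover cannot be told apart in this comparison. In total RNA per kilobase of exon Fga again led the chains, at a mean of 14.3 CPM, with Fgg at 2.45 CPM and Fgb at 0.225 CPM. Of the 7 genes 5 were lower in the Atp6v1b1Cre pulldown than in total RNA, against 27.7% of all genes called (16.4% as lower), and 6 in the Hoxb7Cre pulldown, against 32.5% (17.9% as lower). The median gene lay 0.11 above 0 in both comparisons.

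Cfb showed the largest difference. It was at 297 to 803 CPM in the 21 total libraries, with a median of 489 CPM, at 18.3 to 52.0 CPM in Atp6v1b1Cre pulldowns and at 21.5 to 55.4 CPM in Hoxb7Cre pulldowns. The log2 fold changes were -3.92 and -3.71 (SE 0.13 and 0.13). C3 was at 36.0 to 130 CPM in total RNA and 5.16 to 27.3 CPM in the pulldowns, at -2.45 and -2.44, and C4b was at -2.58 and -2.46. C2 was lower by a like amount, at -2.73 and -2.55. Fgg was at -1.40 (adjusted p = 6.75e-05) and -2.42 (adjusted p = 2.38e-08), with overlap between the groups.

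Of the 51 genes of the complement list 4 were called as higher and 23 as lower in Atp6v1b1Cre, and 3 and 29 in Hoxb7Cre, beside the 16.4% and 17.9% of all genes called as lower. Cfd, the factor D that cleaves factor B, was at -4.94 and -5.16, and Serping1 at -3.30 and -3.33.

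Fga was the chain nearest to its level in total RNA. It was at 23.9 to 77.02 CPM in total RNA, 17.7 to 50.4 CPM in Atp6v1b1Cre pulldowns and 11.6 to 28.6 CPM in Hoxb7Cre pulldowns, at -0.47 (adjusted p = 0.00941) and -0.98 (adjusted p = 2.41e-06), each short of 2-fold. Fgb was not called in the Atp6v1b1Cre pulldown (-0.61, adjusted p = 0.340) but was in the Hoxb7Cre pulldown (-2.63, adjusted p = 0.00114). Hp was at -1.07 (adjusted p = 2.26e-04) and -1.21 (adjusted p = 6.84e-05). The 20 hepatocyte markers, several of which the proximal tubule also expresses, summed to 776 to 4083 CPM in total RNA and to 174 to 692 CPM in the pulldowns of controls of 5.5 months.

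Between the drivers themselves none of the 7 genes was called in controls by edgeR, against 4.11% of all genes, with 3 of the 7, the fibrinogen chains, at an unadjusted p under 0.05. The chains stood higher in Atp6v1b1Cre, at log2 differences of 0.50 for Fga, 2.02 for Fgb and 1.02 for Fgg, with adjusted p of 0.0867, 0.0961 and 0.0690. Control females of this driver carried much of that. Fgb held 9 to 74 counts in each of the 4 females and at most 10 in the males of 5.5 months, and with males alone the Fgb difference was -0.05. C3 differed by -0.01, Cfb by -0.21, C4b by -0.12 and Hp by 0.15. C4a was at -1.25 (adjusted p = 9.15e-05), lower in Atp6v1b1Cre. Of the complement list 7 genes were called as higher in Atp6v1b1Cre and 1 as lower, with C1qa, C1qb and C1qc, the chains of C1q that macrophages make, at 2.61, 2.54 and 2.51. The 10 macrophage markers summed to 122 to 180 CPM in Atp6v1b1Cre females and 45.4 to 100.9 CPM in Hoxb7Cre females, and their part in these values was not tested.

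**Figure D3:**
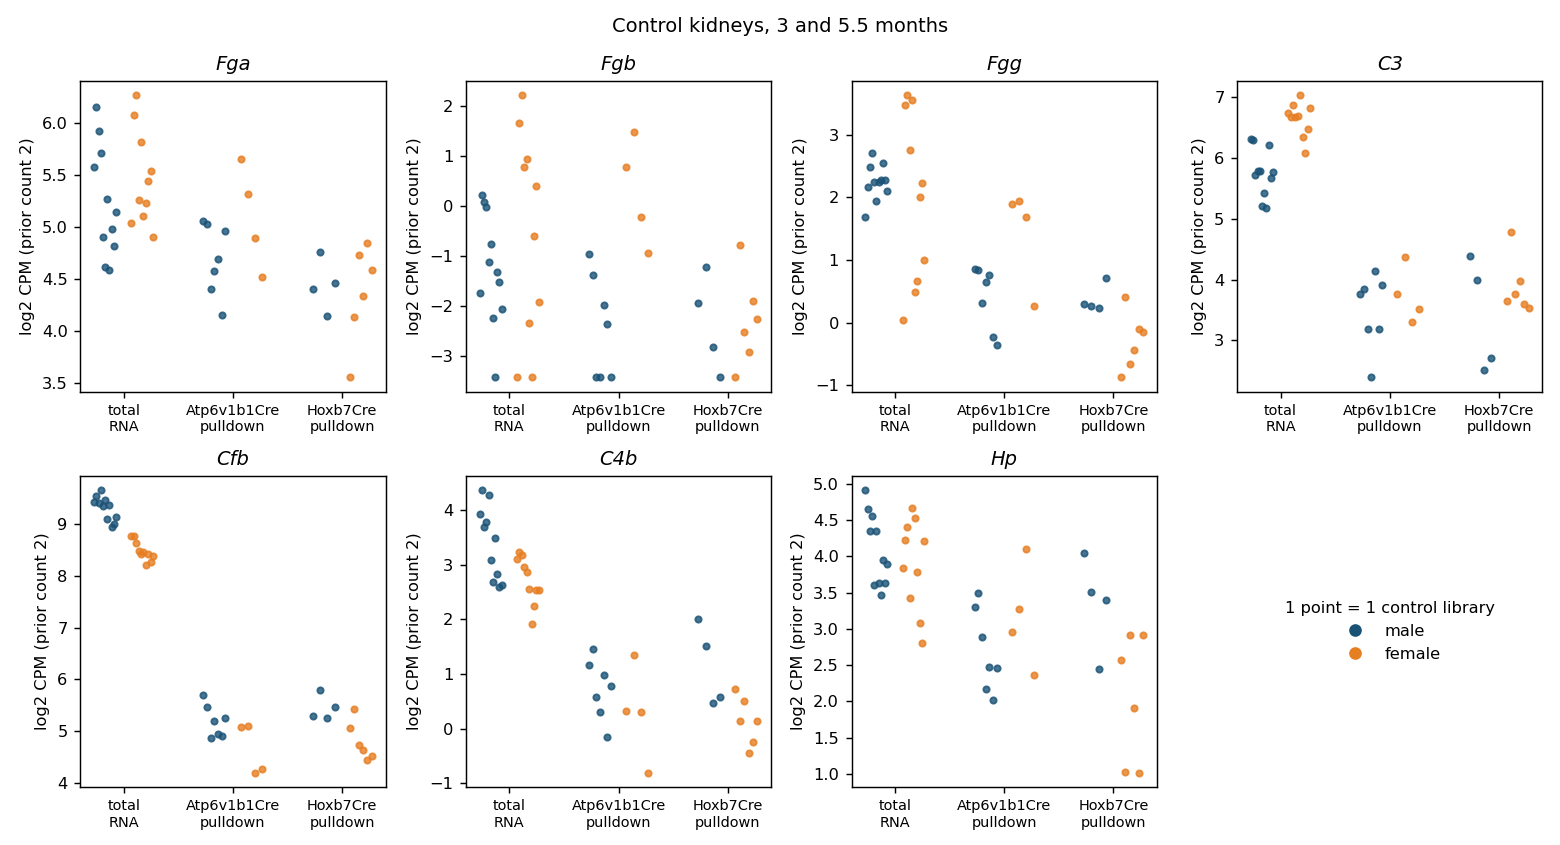
Level of each gene in control libraries as log2 CPM with a prior count of 2, for total kidney RNA (21 libraries), Atp6v1b1Cre pulldown (11) and Hoxb7Cre pulldown (10), with males and females in separate colors. Cfb lay at 297 to 803 CPM in total RNA and at 18.3 to 55.4 CPM in the pulldowns, whereas the ranges of Fga overlapped.

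In total RNA the sexes differed in level for the complement genes, given here without a test. Cfb was at 489 to 803 CPM in the 11 males and at 297 to 436 CPM in the 10 females, with no overlap. C3 pointed the other way, at 36.0 to 78.9 CPM in males and 67.6 to 130 CPM in females. C4b was at a median of 11.1 CPM in males and 6.48 CPM in females, and Hp at 15.4 and 16.4 CPM.

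Over the 48 pulldown libraries the log2 CPM of the 3 chains followed each other. Pearson's r was 0.86 between Fga and Fgg, 0.83 between Fgb and Fgg and 0.68 between Fga and Fgb. C3 and C4b were at 0.66 and C4b and Hp at 0.65, whereas Cfb lay between -0.11 and 0.36 with the other 6. These are descriptions: the points share groups, injuries and depth, and the low counts of Fgb set many of its values. Fgb and Fgg were also chosen for their rise in ischemic Atp6v1b1Cre, and such libraries are among the 48. Their values of r are therefore not independent of that choice.

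**Figure D4:**
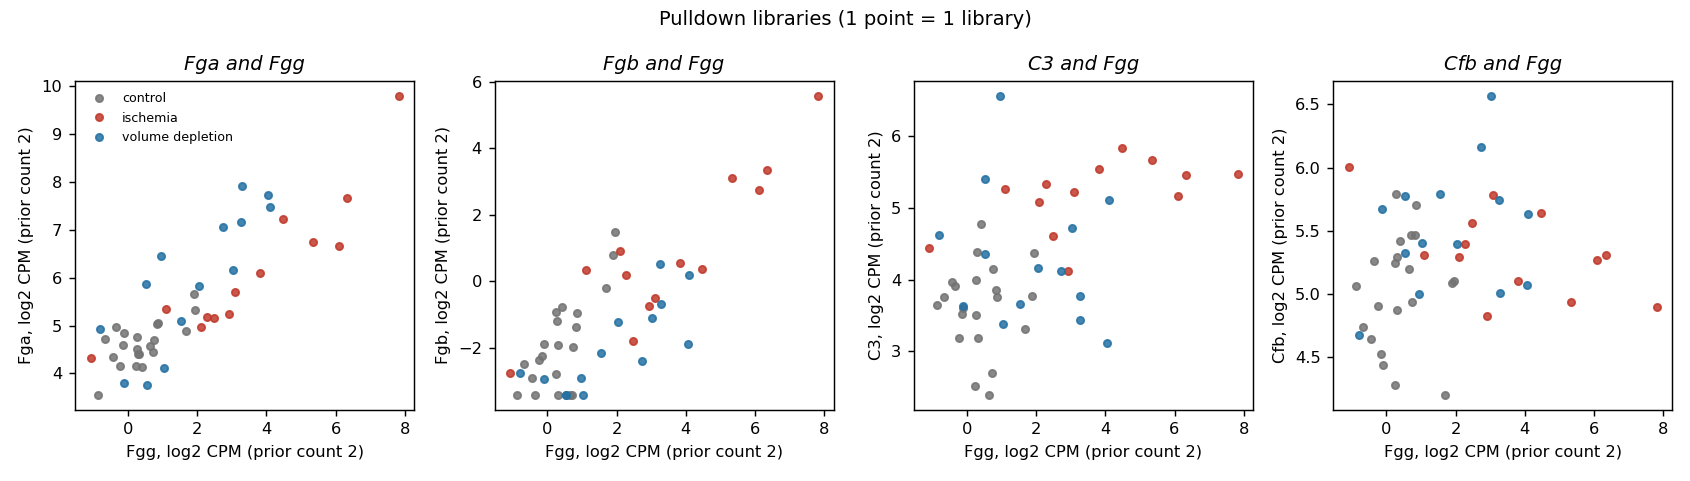
Fga, Fgb, C3 and Cfb, each against Fgg, in the 48 pulldown libraries, all as log2 CPM with a prior count of 2 and colored by treatment. Fga and Fgb rise along with Fgg, with r of 0.86 and 0.83, and the 4 libraries farthest to the right are ischemic Atp6v1b1Cre libraries with Fgg at 40.5 to 227 CPM. Fgb and Fgg were chosen for their rise in ischemic Atp6v1b1Cre.

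The genes whose pattern was most like the mean of the 3 chains were ranked by Pearson's r over these 48 libraries, among 13930 genes with at least 1 CPM on average. The first 3 places were the chains themselves. The next were Spp1 (0.79), the osteopontin gene, Tspan4 (0.74), Aen (0.74), Serpina10 (0.73), the inhibitor of clotting factor X, Ccr1 (0.71), Lrg1 (0.70), itself an acute phase gene, and Tmem173 (0.70). C3 was 171st, Hp 577th, C4b 961st and Cfb 5481st. By Spearman's rho 4 of these 10 genes were again in the first 10, the chains and Ccr1. The chains form the mean that they were ranked by, so their places were set in advance. Apart from them Ccr1 alone stayed, and the others lay between 14th (Spp1) and 141st (Lrg1). For C3 the nearest genes were Steap2 (0.76), Fn1 (0.74), the fibronectin gene, Myo3b (0.74) and Car13 (0.72), and C4b was 17th.

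The other genes of these pathways were followed through lists of 51 complement genes, 40 of coagulation and fibrinolysis, 28 acute phase genes and 20 of IL-6 and STAT3 signalling, which hold the 7 genes as well. After ischemia in Atp6v1b1Cre females 1 complement gene, C3, was called as higher and none as lower, and the list's median log2 fold change was 0.09. In the acute phase list 12 of 28 genes rose, 5 of them from the 7, with a median of 1.62, and in the coagulation list 8 of 40, with a median of 0.42. The median over all tested genes was 0.00, and 0.581% of them were called as higher. Lcn2, which encodes NGAL, rose from 0.803 to 3.35 CPM in controls to 19.4 to 319 CPM (log2 fold change 5.68, adjusted p = 0.00163). Itih4, an acute phase protease inhibitor, reached 2.18 to 5.17 CPM from 0.219 to 0.499 CPM (3.47, adjusted p = 0.00603), and Saa3, a serum amyloid A gene, rose by 5.00 on the log2 scale (adjusted p = 0.0159). Of the clotting and fibrinolysis genes, Anxa2 and S100a10, the plasminogen receptor pair, rose by 1.02 and 1.03, and Pros1, protein S, by 1.00.

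In ischemic Hoxb7Cre males 7 complement, 2 coagulation, 8 acute phase and 6 IL-6 and STAT3 genes rose and none fell, beside 1.52% of all genes called as higher, so that the 2 of 40 coagulation genes lie near that share. The median log2 fold changes were 0.51, 0.30, 1.40 and 0.38. C7 of the terminal route rose to 11.6 to 16.8 CPM from 1.78 to 6.54 CPM (1.75, adjusted p = 0.00776). Of the regulators Serping1, the C1 inhibitor, rose by 1.13, and of the receptors C3ar1 rose by 1.60 and C5ar1 by 1.46. Lif, Osmr, Clcf1 and Socs3 of the IL-6 list rose by 1.60 to 2.91. Il6 was at 0.0765 to 0.544 CPM, and its controls held at most 0.0469 CPM (1 read), below the floor of 3 counts, so no fold is given. In ischemic Hoxb7Cre females 2 complement genes rose, C4b and Itgb2, and 2 coagulation genes, F13a1 at 3.03 and F10 at 2.10. The acute phase list had 4 that rose, and Lifr of the IL-6 list fell by 1.17 on the log2 scale. Of all genes 2.08% were called in these females, 0.784% as higher.

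After volume depletion in Hoxb7Cre males 10 of the 20 IL-6 and STAT3 genes rose and none fell (median 1.26), beside 16.4% of all genes called, among them Socs3 by 4.21, Cebpd by 4.18 and Cebpb by 2.89. Of the 7 genes Hp alone was called in the same mice, as lower, a count near that share. Of the complement list there 3 rose and 3 fell, and of the coagulation list 5 rose and 5 fell. In Atp6v1b1Cre females 7 of the 20 rose and 1 fell, with Socs3 at 4.19 and Nfkbiz at 2.70, and of the complement list 1 rose and 1 fell, beside 9.89% of all genes called. In Atp6v1b1Cre males 5 of the 20 rose, with Cebpb at 2.06 and Nfkbiz at 1.59, and 1 complement gene fell, C8a at -1.86, beside 5.15% of all genes called. The acute phase gene A2m rose by 2.66 in Atp6v1b1Cre females. In the males it was at 0.199 to 4.30 CPM and its controls at no more than 0.126 CPM, too few reads for a fold. In Hoxb7Cre females no gene of the complement, coagulation or IL-6 lists was called by edgeR, and Serpina3n of the acute phase list rose by 2.38 (adjusted p = 0.00942).

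Set against volume depletion, ischemic Hoxb7Cre males had 10 complement genes higher and 1 lower, and 0 IL-6 and STAT3 genes higher and 8 lower, with Cebpb at -3.53 and Cebpd at -3.92, beside 14.7% of all genes called (6.55% as higher). In Atp6v1b1Cre females 13 coagulation genes were higher and 2 lower, and 2 IL-6 and STAT3 genes were higher and 6 lower, beside 19.9% of all genes called (8.43% as higher).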

How the data were processed

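RNA was measured by poly(A) sequencing in 48 biotin pulldown and 21 total kidney libraries. The authors deposited 1 table of raw read counts per gene. Per the labels and the study's methods, base calls came from CASAVA 1.8.2, reads were trimmed with Trimmomatic 0.36 and aligned to mm10 with STAR 2.5.3a, and genes were counted with HTSeq 0.6.1p2 at its default settings, which leaves out reads that map to several places or genes. The annotation used is not given in the sources used here.

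From these counts, genes whose counts summed to 2 or more across the 69 libraries were kept (21175 of 24411). Differences were tested with edgeR 4.0.16 (quasi-likelihood test, TMM scaling, Benjamini-Hochberg adjustment over all genes, R 4.3.3). A gene was called at an adjusted p under 0.05 and a change of at least 2-fold. Males, females and controls were fitted apart, with sex as a covariate in the controls. CPM used 1 TMM scaling over the 69 libraries, and log2 CPM a prior count of 2. Groups came from the sample titles. The p-values measure the spread between these samples, and the labels do not say how mice were housed or handled together. The calls were first tested on simulated data, for well-expressed genes with large changes in the layout of the males. Low counts such as those of Fgb, changes near 2-fold and the wider spread of the females were not covered. Depth was 12618062 to 30305464 counts per library, and a level of 3 counts or fewer was taken as not measurable. Intervals and floors cover counting error only.

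The 7 genes were all named, and so were, in each list and role, up to 4 called genes whose groups did not overlap, the copy C4a, the neighbour C2 and the 10 genes most like the chains. The members, lists and tests were chosen with earlier results of these data known. Fgb and Fgg were chosen on ischemia in Atp6v1b1Cre with no sex named. The males were taken as the source, and the contrasts of ischemic Atp6v1b1Cre males carry no test. The controls of these males also serve in the volume depletion and control comparisons, which are not independent of the choice for Fgb and Fgg. No 2 libraries agreed within sampling noise. Residuals of samples with the same replicate number had a mean correlation of -0.00133 in males (20 pairs, -0.446 to 0.355) and 0.0222 in females (14 pairs, -0.277 to 0.382), so the numbers were not used as pairs. Gene positions are from GENCODE M21 and promoters from RefSeq, both on GRCm38. Alternatives were DESeq2 1.42.0, its size factors, other filters, a covariate for the series of library numbers, the first series alone, the replicate number as a block, other sets of libraries, and leaving out each library in turn. Some genes of the lists are not reported here by name.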

Additional observations from a re-analysis of the deposited data

Results flagged for a closer look

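Of 63 groups of 4 to 10 libraries screened, 4 held a library far from the rest of its group, and chance alone gives about 1 in 20. Fga in ischemic Hoxb7Cre males was at 151 CPM in replicate 5 and at 35.4 to 52.1 CPM in the others. Fgg in control Hoxb7Cre males was at 1.55 CPM in replicate 5 and at 1.09 to 1.14 CPM in the others. C3 in control Hoxb7Cre females was at 27.3 CPM in replicate 6 and at 11.4 to 12.4 CPM in the others. Hp in volume-depleted Atp6v1b1Cre males was at 27.3 CPM in replicate 2 and at 9.72 to 10.8 CPM in the others. Groups of 3, which include ischemic Atp6v1b1Cre mice, were not screened.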

How the results depend on the processing

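The number of the 7 genes called moved with some settings. With a covariate for the series of library numbers it was 2 in place of 5 for ischemia in Atp6v1b1Cre females, 0 in place of 2 for ischemia in Hoxb7Cre females and 1 in place of 2 for volume depletion in Atp6v1b1Cre females. In the first series alone it was 1, and 0 for volume depletion in Atp6v1b1Cre of either sex. With only the groups compared in the fit it was 2 for ischemia in Atp6v1b1Cre females and 4 in place of 2 for ischemia in Hoxb7Cre males, where DESeq2 also gave 4. For the response of Hoxb7Cre males against females DESeq2, edgeR's expression filter and the fit of only those groups each gave 1 in place of 0. Both sexes together gave 1 in place of 0 for volume depletion in Hoxb7Cre females, and females alone gave 3 in place of 5 for Atp6v1b1Cre controls against total RNA. The causes were not tested.

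With the replicate number as a block, which pairs no mice here, the count was 4 for ischemia in Hoxb7Cre males, 6 for ischemia against volume depletion there, 2 for Atp6v1b1Cre against Hoxb7Cre controls, and 0 for volume depletion in males of either driver, ischemia in Hoxb7Cre females and ischemia against volume depletion in Atp6v1b1Cre females. Control Atp6v1b1Cre females share no number with the other females, so the block could not be fitted for their contrasts.

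Leaving out 1 library gave 1 to 3 genes for ischemia in Hoxb7Cre males, 1 to 5 in Atp6v1b1Cre females and 0 to 2 in Hoxb7Cre females. For volume depletion it gave 2 in each fit of Atp6v1b1Cre males, 0 to 1 in Hoxb7Cre males, 0 to 2 in Atp6v1b1Cre females and 0 in Hoxb7Cre females. Ischemia against volume depletion gave 3 to 5 in Atp6v1b1Cre females and 3 to 6 in Hoxb7Cre males. The response of males against females gave 0 to 1, Atp6v1b1Cre against total RNA 4 to 5, Hoxb7Cre against total RNA 6 to 7, and Atp6v1b1Cre against Hoxb7Cre 0 to 1.

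Of 2429 single values under an alternative, 58 changed sign, 1 of them from a called value: Hp after volume depletion in Hoxb7Cre males, at 0.47 with both sexes together. Under the block the values that turned were Fgb -2.12, C3 -0.49, Cfb -0.13 and C4b -1.11 (volume depletion, Atp6v1b1Cre males), Fga 0.0010 and C4b 0.79 (volume depletion, Hoxb7Cre males), Fgb 0.20 and Cfb -0.16 (volume depletion, Hoxb7Cre females), Fga -0.61, Fgb -0.91 and C4b 1.24 (males against females), and C3 0.21, Cfb 0.0012 and C4b 0.36 (Atp6v1b1Cre against Hoxb7Cre controls). With both sexes together they were Fgb -0.0325 (volume depletion, Atp6v1b1Cre males), Fga 1.06 and C4b 0.35 (volume depletion, Hoxb7Cre males) and Hp 0.20 (volume depletion, Atp6v1b1Cre females). With the series as a covariate they were C3 -0.0359 in Hoxb7Cre males and Cfb -0.0626 and C4b -0.0756 in Hoxb7Cre females, all after volume depletion. In the first series they were Hp -0.00896 (ischemia, Hoxb7Cre males), Cfb -0.0752 (volume depletion, Atp6v1b1Cre males), C3 -0.34 (volume depletion, Hoxb7Cre males) and Cfb -0.13 (ischemia, Atp6v1b1Cre females). In controls they were Fgb 0.11 with females alone against total RNA, and between the drivers Fgb -0.0517 and Hp -0.69 with males alone and C4b 0.33 with females alone.

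Leaving out 1 library turned values with these ranges: after volume depletion Fgg -0.16 to 0.44, C3 -0.10 to 0.63 and C4b -0.53 to 0.0561 in Hoxb7Cre males, and C3 -0.17 to 0.55 and C4b -0.14 to 0.94 in Atp6v1b1Cre females. For ischemia against volume depletion they were Cfb -0.13 to 0.0706 in Hoxb7Cre males and Fga -0.84 to 1.69 in Atp6v1b1Cre females. For differences between responses they were Fgb -0.49 to 2.16 between drivers in females and -0.85 to 0.985 between sexes. Between control drivers they were C3 -0.0943 to 0.17, C4b -0.33 to 0.0759 and Hp -0.0697 to 0.36.

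The count over all genes moved by more than 1.5 times in several fits. For ischemia in Atp6v1b1Cre females it was 244, and 492 by DESeq2, 79 with only the groups compared, 825 with both sexes, 394 in the first series and 33 to 622 without 1 library. For ischemia in Hoxb7Cre females it was 440, and 1070 by DESeq2, 966 with only the groups compared, 264 with both sexes, 23 with the series and 0 with the block. For ischemia in Hoxb7Cre males it was 488, and 897 with the series and 264 with both sexes. For volume depletion it was 1091 in Atp6v1b1Cre males (2228 with the block, 683 with only the groups compared, 2018 with both sexes, 661 in the first series), 3478 in Hoxb7Cre males (965 with both sexes), 2095 in Atp6v1b1Cre females (1027 in the first series) and 21 in Hoxb7Cre females (75 by DESeq2, 1 with the block, 5 with only the groups compared, 965 with both sexes, 71 with mice of 3 months). With the block it was 2299 in place of 4214 for ischemia against volume depletion in Atp6v1b1Cre females and 0 in place of 1479 for males against females, and between control drivers it was 412 in place of 871 with females alone. Depth limits Fgb most, which had 3 counts or fewer in 27 of the 69 libraries.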
